A study of Homo sapiens with 41 samples.

Results

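Elongin A was mapped in DLD1 cells, an established human colon cancer line, and 726 of the 8720 peaks called with a goat antibody overlapped a peak called with a mouse antibody by at least 1 bp. These 726 shared peaks are 8.33% of the goat antibody list, and the other 7994 goat antibody peaks are called the remaining peaks here. The shared peaks were selected on the measured peaks of both lists, so their overlap is a description and was not tested. All samples used were wild-type DLD1 cells without siRNA. The goat antibody list comes from 2 CUT&RUN replicates with a goat IgG control, the mouse antibody list from 1 CUT&RUN sample with a mouse IgG control, and a list of 186 peaks from 1 ChIP-seq sample of Elongin A with an input control. In CUT&RUN, a nuclease tethered to the antibody cuts out the bound DNA, whereas ChIP-seq pulls down sheared chromatin. The paper describes formaldehyde fixation of the cells for both methods, although its CUT&RUN methods name only the goat antibody. Each peak carries a fold enrichment, which is its signal over the local control background, and a q-value, and both are the authors' own values. There is 1 value per peak and list, with no replicate error, and the depth behind it is unknown.

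Elongin A is the large subunit of Elongin, a complex with Elongin B and Elongin C that was named for stimulating transcript elongation by RNA polymerase II (RNAPII) in vitro, and it also serves in a ubiquitin ligase that targets stalled RNAPII. Most spliceosomal small nuclear RNAs (snRNAs) are made by RNAPII from short genes without introns. Their 3′ ends are cut by the Integrator complex in place of the polyadenylation machinery, and a short element past the mature end, the 3′ box, directs that cut.

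The sequences below are shown because many of the shared peaks with the highest fold enrichment lay just past the 3′ ends of such genes. The first runs for 300 bases on the GRCh37 (hg19) assembly, 5′ to 3′ on the gene's strand, with the bases of the annotated gene in capitals. RNVU1-18, a variant U1 snRNA gene with the highest goat antibody fold enrichment of all shared peaks, is shown at chr1:149223822-149224121 on the minus strand. Its gene ends at base 64 of the run, the ChIP-seq summit is base 106 and the goat antibody summit is base 256.
RNVU1-18: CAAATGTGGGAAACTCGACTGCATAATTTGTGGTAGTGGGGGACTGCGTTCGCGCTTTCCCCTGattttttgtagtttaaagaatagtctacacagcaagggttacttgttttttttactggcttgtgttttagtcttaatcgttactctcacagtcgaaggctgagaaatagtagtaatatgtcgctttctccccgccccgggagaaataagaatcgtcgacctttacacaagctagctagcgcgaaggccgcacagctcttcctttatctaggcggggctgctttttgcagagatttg

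The next 6 are the 60 bases that follow the annotated end of each snRNA gene near a shared peak that had a match to the 3′ box there, with the match in capitals. They lie at chr1:11968329-11968388 on the plus strand for RNU5E-1, chr1:11969805-11969864 on the minus strand for RNU5E-4P, chr1:16840557-16840616 on the minus strand for RNU1-1, chr1:17222639-17222698 on the plus strand for RNU1-2, chr1:45196667-45196726 on the minus strand for RNU5D-1, and chr1:210547438-210547497 on the minus strand for RNU5A-8P.
RNU5E-1: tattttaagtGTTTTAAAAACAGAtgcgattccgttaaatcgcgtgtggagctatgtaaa
RNU5E-4P: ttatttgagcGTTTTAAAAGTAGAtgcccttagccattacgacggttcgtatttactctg
RNU1-1: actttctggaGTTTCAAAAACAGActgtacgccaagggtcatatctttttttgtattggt
RNU1-2: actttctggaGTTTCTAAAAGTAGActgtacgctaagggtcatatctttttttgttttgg
RNU5D-1: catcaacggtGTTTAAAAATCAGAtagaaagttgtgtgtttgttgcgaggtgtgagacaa
RNU5A-8P: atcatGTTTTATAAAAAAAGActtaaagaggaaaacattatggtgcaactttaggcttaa

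Of the 20 annotated snRNA genes within 500 bp of a shared peak, 6 had the 3′ box in the 60 bases past their end (30.0%, Wilson 95% interval 14.5% to 51.9%). None of the 15 snRNA genes with a remaining peak only had it (Wilson upper limit 20.4%). Among the 1879 snRNA genes without a goat antibody peak nearby, 6 had it (0.319%, 0.146% to 0.695%). These 1879 span all annotated snRNA classes, copies of the U6 genes of RNA polymerase III included. The shares were not split by class, so they do not compare like genes with and without a peak. Their intervals take genes as independent, which does not hold here. RNU5E-1 and RNU5E-4P, which had the 3′ box, lay under the same shared peak. The neighbouring U4 genes, which lacked it, lay together under another, and many of the genes are copies of each other. The interval for genes near a shared peak is therefore likely too narrow. Besides RNU1-3 and RNU1-4, the matches without a peak were the U6 and U6atac copies RNU6-880P, RNU6-933P, RNU6-953P and RNU6ATAC8P. The match was searched on the gene's strand, and no snRNA gene had it on the other strand. RNU1-3 and RNU1-4, which carry the element, had no goat antibody peak within 500 bp. The motif is a strict form that misses variants of the element, it was chosen after the peaks at snRNA genes had been seen, and a match is a description of the letters alone.

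At snRNA and snoRNA genes whose shared peak was also in ChIP-seq, the highest summits mostly lay past the gene and not over it. Counting every snRNA or snoRNA gene within 500 bp of a shared peak that also overlapped a ChIP-seq peak gave 21 genes. The highest summit of each list within 500 bp upstream to 1000 bp downstream of the gene start was taken. For every gene but SNORD3B-2, far more of this window lies past the gene than over it. How well reads over gene bodies that occur in copies could be placed was not tested. A goat antibody summit was found at 19 of them, and it lay past the annotated end of the gene at 18 of 19, at a median of 242 bp past the end. The exception was SNORD3B-2, a U3 snoRNA gene whose annotation spans 791 bp. The mouse antibody summit lay past the end at 17 of 19 genes (median 275 bp), with SNORD3B-2 and RNU1-1 as exceptions. At RNU1-1 the highest mouse antibody summit was in a separate upstream peak not in ChIP-seq, and a lower one lay 868 bp downstream of the gene start. The ChIP-seq summit lay past the end at 19 of 21 genes, at a median of 77 bp, with SNORD3B-2 and RNVU1-14 as exceptions. The goat antibody summit was farther downstream than the ChIP-seq summit at 19 of 19 genes, by 4 to 712 bp and a median of 150 bp. Goat and mouse antibody summits were a median of 56.5 bp apart over the 18 genes that had both. The overlap that chose the shared peaks itself favours such nearness. Summit positions were not taken for the 24 shared peaks near a small RNA gene that were not in ChIP-seq.

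**Figure D1:**
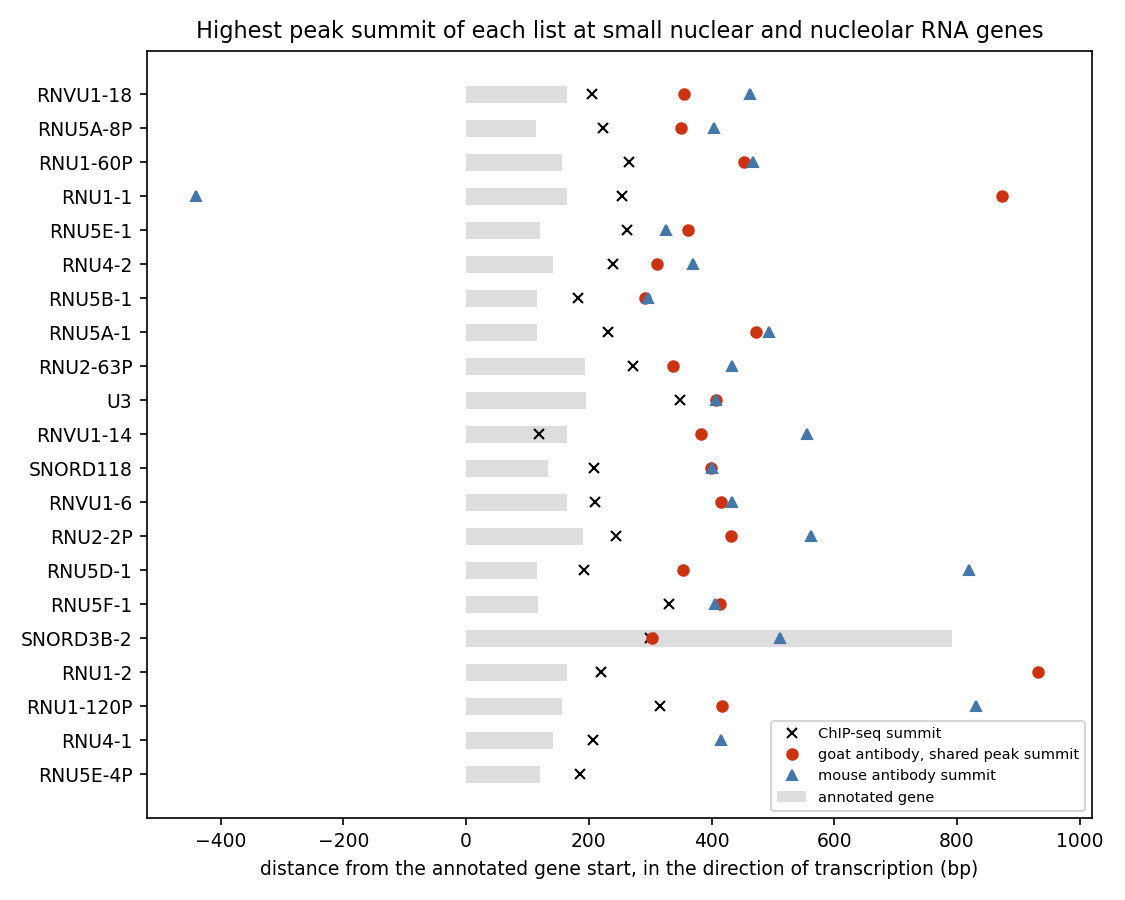
Distance in bp of the highest summit of each list from the annotated start of 21 snRNA and snoRNA genes, in the direction of transcription, with genes ordered by goat antibody fold enrichment. Grey bars are the annotated genes, crosses ChIP-seq summits, circles goat antibody summits of shared peaks and triangles mouse antibody summits; most crosses lie just right of the bar and the circles farther right.

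The U1 genes held some of the highest values. The shared peak at RNVU1-18 had a fold enrichment of 21.2 with the goat antibody, 6.98 with the mouse antibody and 19.2 in ChIP-seq. RNU1-1, a main U1 gene, had 17.5, 4.73 and 29.3 in the same order at the peak past its end. A separate shared peak upstream of RNU1-1 had 11.4 with the goat antibody and the highest mouse antibody value of all shared peaks, 12.1, and overlapped no ChIP-seq peak. The 32 bases at that upstream summit occur 4 times in the genome. RNVU1-14 had 11.7, 9.19 and 15.96, and RNVU1-6 had 10.7, 6.26 and 25.2. Of 26 U1 genes and variants in the annotation, 5 had the centre of a goat antibody peak in their promoter window, body or end window and 4 that of a shared peak. RNU1-2 is not among them, since the shared peak past its end, described below, has its centre outside those windows. U1 genes are near-identical copies, and peaks between copies are uncertain even where the summit itself occurs once. It does so for the goat antibody summits past the ends of the 4 genes. The 32 bases at the mouse antibody summit of RNVU1-14 occur 5 times, so its value of 9.19 is less certain.

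All 8 U2, U4 and U5 genes of the list that the annotation holds had a shared peak, and for all 8 genes that peak also overlapped ChIP-seq. Of all 1900 annotated snRNA symbols, 34 had any goat antibody peak and 19 a shared one (1.0%). RNU5E-1 had a fold enrichment of 15.1 with the goat antibody, 9.25 with the mouse antibody and 26.8 in ChIP-seq. RNU4-1 and RNU4-2, the neighbouring U4 genes, lay under 1 shared peak with 14.7, 7.85 and 32.1. RNU5B-1 had 13.6, 5.79 and 24.2, and RNU5A-1 had 13.6, 6.20 and 28.8. The U2 gene RNU2-2P, next to WDR74, had the highest ChIP-seq value of any shared peak, 47.1, beside 9.10 and 8.72. Taking the highest shared peak of each gene, the lowest goat antibody values were those of RNU5D-1, at 8.33, and RNU5F-1, at 7.75, which still stood above the median of all shared peaks, 4.32.

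Some annotated copies had values in the range of the main genes. RNU5A-8P, a U5 copy inside HHAT, had 20.3 with the goat antibody, 7.13 with the mouse antibody and 7.32 in ChIP-seq. RNU1-60P, a U1 copy by TEX14, had 18.0, 10.9 and 11.2. A U3 gene annotated by TEX14 had 12.2, 8.65 and 28.2, and SNORD118, the U8 snoRNA gene, had 11.3, 8.08 and 17.9. Summits at these 4 genes occur once in the genome.

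Several of the highest shared peaks carried no snRNA symbol in the annotation. The peak at TAF12, which encodes a TFIID subunit, had 16.9 with the goat antibody, 8.15 with the mouse antibody and 24.1 in ChIP-seq. In the RefSeq table of another assembly, the U11 gene RNU11 lies within 5 kb of TAF12 and TAF12-DT. The peak between CYB5R3 and POLDIP3 had 15.05, 5.48 and 16.2, and RefSeq has the U12 gene RNU12 within 5 kb of both. The symbols RNU11 and RNU12 are absent from the annotation used, so neither gene was counted. A shared peak in CROCC had 15.8, 6.30 and 10.3, and a second one in the same gene, past RNU1-2, had 5.16, 4.36 and 27.2.

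Genes made by RNA polymerase III were read from a list of their own. None of the 16 RNA polymerase III type 3 genes in the annotation, which include RN7SK, RMRP and the U6 genes, had a shared peak, while 5 had a remaining peak, the highest being RNY5 at 6.32. Of all protein-coding genes with any goat antibody peak only 12.3% had a shared one, so 5 genes are too few to show a difference. Outside this list, the annotated U6 copy RNU6-702P by GATA6 lay within 500 bp of a shared peak, at 5.42 with the goat antibody and 4.84 with the mouse antibody. A Y RNA copy by TRIP4 had a shared peak of 4.32 and 4.18 in its promoter or end window, but not within 500 bp. Of the 3 minor spliceosome and U7 genes in the annotation, none had a shared peak, although RNU7-1 had a remaining peak of 11.9 and RNU4ATAC one of 8.48 that overlapped ChIP-seq. At 5 independently transcribed C/D snoRNA genes, 3 had a shared peak, SNORD118 and the pair SNORD3B-1 and SNORD3B-2, which shared 1 peak of 6.56 with the goat antibody, 7.65 with the mouse antibody and 20.4 in ChIP-seq.

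Across all peaks, 44 of 726 shared peaks were 500 bp or less from an annotated small RNA gene (6.06%, Wilson 95% interval 4.55% to 8.04%) against 115 of 7994 remaining peaks (1.44%, 1.20% to 1.72%). The difference was 4.62 percentage points (Newcombe 95% interval 3.08 to 6.61), and 1.82% of all goat antibody peaks lay that near. These intervals cover counting error only and take peaks as independent. For snRNA genes alone the shares were 2.75% and 0.225%, for snoRNA genes 1.79% and 0.688%, and for miRNA genes 1.52% and 0.350%, and each difference had an interval above 0. The shared peaks were wider than the remaining ones, and a wide peak reaches more genes and has more bases that can overlap a second list. Among peaks narrower than 1 kb the difference was 1.26 points (0.254 to 2.85), and with the summit in place of the whole peak it was 3.04 points (1.82 to 4.74). It was not seen at every strength: in quintiles of goat antibody fold enrichment, from the lowest to the highest, the difference was 0.0814, -0.573, -0.759, 5.05 and 16.8 points, and the intervals of the lowest 3 held 0.

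The ChIP-seq sample had no part in choosing the shared peaks. Of the 726, 40 overlapped a ChIP-seq peak (5.51%, 4.07% to 7.42%) against 33 of the remaining peaks (0.413%, 0.294% to 0.579%), a difference of 5.10 points (3.65 to 7.01). Over all goat antibody peaks the share was 0.837%, so 54.8% of the goat antibody peaks that overlapped ChIP-seq were shared ones. Of the 40, 20 had an annotated small RNA gene at 500 bp or less, and without peaks that near the difference was 2.55 points (1.51 to 4.11). The peaks at TAF12 and between CYB5R3 and POLDIP3 stayed in, since the annotation lacks RNU11 and RNU12. In quintiles of width, from the narrowest to the widest, it was 2.27, -0.424, -0.308, 1.19 and 11.6 points, where the second and the third had no shared peak in ChIP-seq and intervals that held 0, and 36 of the 40 peaks were in the widest. Among peaks narrower than 1 kb it was 2.22 points (1.24 to 3.79).

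**Figure D2:**
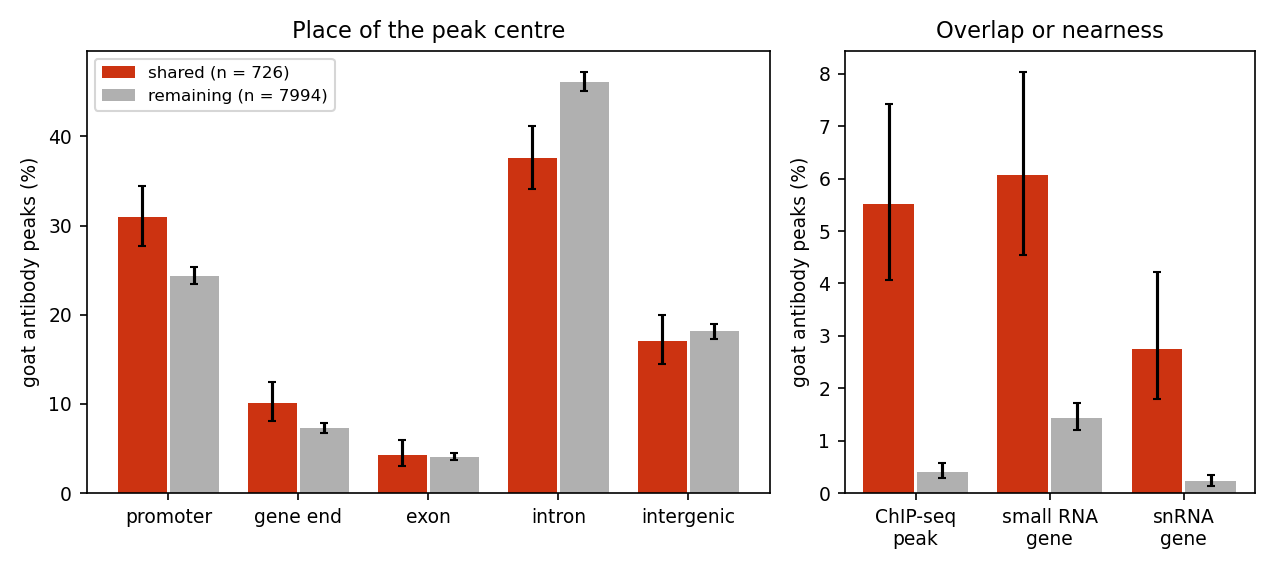
Percent of shared peaks (red, n = 726) and remaining goat antibody peaks (grey, n = 7994) by the place of the peak centre, left, and by overlap with a ChIP-seq peak or nearness to a small RNA gene, right. Bars start at 0 and error bars are Wilson 95% intervals; the right panel shows 5.51% against 0.413% for ChIP-seq.

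The 40 peaks found in all 3 lists had a median goat antibody fold enrichment of 8.83, against 4.26 for the other 686 shared peaks, and a median mouse antibody fold enrichment of 5.68 against 4.14. Their median width was 1523 bp against 460 bp. At 39 of the 40 the 32 bases at the goat antibody summit occur once in the genome. Besides the snRNA and snoRNA genes they held protein-coding and long noncoding genes. LINC00910, a long noncoding RNA gene, had 11.5 with the goat antibody, 5.32 with the mouse antibody and 26.1 in ChIP-seq. The promoter of HMGXB4, an HMG-box protein gene, had 6.34, 4.53 and 26.9 in a peak of 212 bp, and that of KDM8, which encodes a JmjC-domain protein, had 4.23, 3.07 and 19.7. ARHGDIA, which encodes a GDP-dissociation inhibitor of small GTPases, had 9.73, 8.13 and 6.94. MALAT1 and 5 histone genes were also in all 3 lists, as were ID2, THOC6, MIRLET7BHG and HOXB3, which are named here after their values were seen. The lowest of the 40 was an intergenic peak on chromosome 21 with 1.90, 2.11 and 1.76, whose summit word occurs 3 times.

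The peak centres of shared peaks lay in promoter windows more often than those of remaining peaks. A promoter window here runs from 1000 bp upstream to 100 bp downstream of a transcription start site (TSS), and it held 225 shared peaks (31.0%, 27.7% to 34.4%) against 1947 remaining peaks (24.4%, 23.4% to 25.3%), a difference of 6.64 points (3.24 to 10.2). The window around the end of transcripts, from 100 bp upstream to 1000 bp downstream, held 10.1% against 7.27%, a difference of 2.79 points (0.720 to 5.25). Introns held fewer shared peaks, 37.6% against 46.1%, a difference of -8.54 points (-12.2 to -4.80). For exons (4.27% against 4.08%) and intergenic sequence (17.1% against 18.2%) the intervals of the difference held 0. Within 1000 bp of the nearest protein-coding TSS, 17.5% of shared summits lay upstream against 13.5% of remaining ones (difference 4.00 points, 1.29 to 7.02), while 11.8% against 12.5% lay downstream (-0.701 points, -2.98 to 1.95).

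The shared peaks were not the strongest goat antibody peaks by fold enrichment. Their median was 4.32 (lowest 1.90, highest 21.2), and that of the remaining peaks was 4.33. By deciles of fold enrichment, 13.2% of the highest decile (11.1% to 15.6%) and 10.3% of the lowest decile (8.47% to 12.5%) were shared, with 6.19% to 9.40% in the deciles between. The share followed the q-value and the width more closely. It was 4.93% in the lowest decile of −log10 q-value and 20.9% in the highest, and 4.82% in the narrowest decile and 21.7% in the widest. Shared peaks were a median of 479 bp wide and remaining peaks 355 bp, and 16.7% against 3.403% were 1 kb wide or more. Since the overlap itself depends on width, these figures describe the choice of the peaks.

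**Figure D3:**
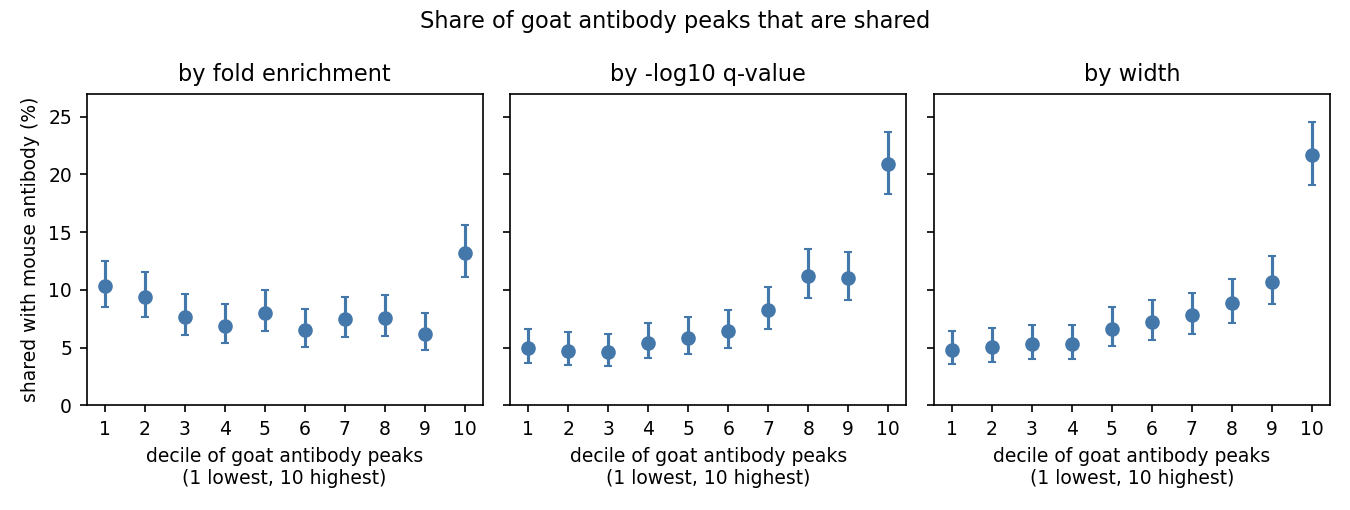
Percent of goat antibody peaks that are shared with the mouse antibody, in deciles of all 8720 goat antibody peaks by fold enrichment, by −log10 q-value and by width. Points are shares with Wilson 95% intervals; the highest decile holds 13.2%, 20.9% and 21.7% in the 3 panels.

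The 4 goat antibody peaks of the highest fold enrichment were among the remaining ones. They were at the promoters of SRSF1, a splicing factor gene, at 43.6, of SUGP2 and ARMC6 at 25.7, of PRPF40B and MCRS1 at 25.6, and of NAPG at 23.6, and none overlapped a ChIP-seq peak. The next remaining peak, at RPS2 and NDUFB10, had 14.8 and ranked 16 of all. Ranks 5 to 15 were all shared peaks. Of the 12 shared peaks with the highest mouse antibody values, 10 are described above or below, 1 lies on chromosome Y and is not described, and 1 on chromosome 17, past a gene without a symbol, had 11.2 with both antibodies and no ChIP-seq peak.

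The overlap rule itself keeps the summits of the 2 antibodies near each other at shared peaks, so their distance is a description only. The nearest mouse antibody summit was a median of 60 bp from the goat antibody summit, 44.4% were within 50 bp (40.8% to 48.0%) and 5.37% were over 500 bp apart. In 700 of 726 shared peaks there was 1 mouse antibody peak, and GAS5 was 1 of 2 that held 4. Over the 726 peaks, goat and mouse antibody fold enrichment had a Spearman correlation of 0.24 and, on the log2 scale, a Pearson correlation of 0.34. This is a description across peaks that share 1 control per list and were all called in both. The median mouse antibody fold enrichment of shared peaks was 4.22, and that of the 1581 mouse antibody peaks outside the goat antibody list was 4.46.

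**Figure D4:**
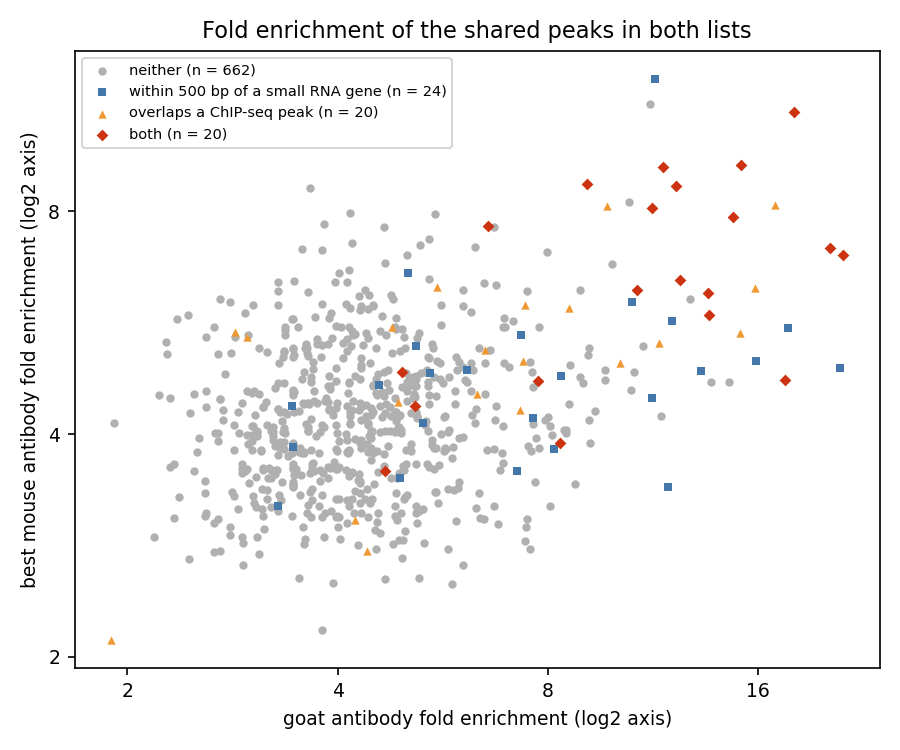
Goat antibody fold enrichment (x axis) against the highest overlapping mouse antibody fold enrichment (y axis) of the 726 shared peaks, both on log2 axes. Colours mark peaks near a small RNA gene, peaks that overlap ChIP-seq, both or neither; the 20 peaks with both sit mainly at the upper right.

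Just inside the limit of 1 bp were peaks in SMS, EPB41L5 and SLC11A2, which overlapped a mouse antibody peak by 10, 16 and 20 bp. Their goat antibody fold enrichments were 3.26, 3.71 and 3.46. Just outside it were peaks in ANXA2, NAT16 and RASSF3, which missed the nearest mouse antibody peak by 20, 25 and 41 bp and had 4.60, 4.38 and 4.61. Overlaps under 50 bp were found for 11 members, and 146 remaining peaks had a mouse antibody peak within 500 bp.

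Protein-coding genes were counted when their promoter window, body or end window held the centre of a shared peak. This gave 529 of 20149 genes (2.63%), while 4309 genes (21.4%) had any goat antibody peak. Of those 4309, 12.3% had a shared peak. A shared peak lay in the promoter window of 208 of the 529, in the end window of 79 and in both kinds of window of 14. Of the 529, 292 also had a remaining peak. Their median length was 42.9 kb, against 51.6 kb for genes with remaining peaks only and 27.2 kb for all protein-coding genes. EIF1, H2AC21, H3C7 and H4C1, all short genes, lay wholly inside a shared peak.

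Genes of protein synthesis held several wide shared peaks. Of 88 genes for cytosolic ribosomal proteins, 15 had a shared peak (17.0%), and 67 had any goat antibody peak (76.1%). Among them were RPL3 at 10.9 with the goat antibody and 5.27 with the mouse antibody, RPL13A at 8.97 and 4.70, and RPL27A at 7.61 and 4.21. The RPL27A peak was 5390 bp wide. None of these 15 genes had a shared peak in ChIP-seq. Without peaks of 1 kb or more the count was 9. Mitochondrial ribosomal protein genes were near the 2.63% of all protein-coding genes, with 2 of 78, MRPS18B at 4.04 and MRPS28 at 3.93. Any goat antibody peak was found at 14 of the 78.

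Among 72 translation factor genes 27 had any goat antibody peak and 8 a shared one. Over all protein-coding genes 12.3% of those with any goat antibody peak had a shared one. EIF4A2, which encodes an RNA helicase of translation initiation and hosts snoRNAs, had 21.0 with the goat antibody and 4.91 with the mouse antibody over 5551 bp, reaching past the gene's end. EIF1, the start codon selection factor, had 13.7 and 4.70. EEF1A1, the main aminoacyl-tRNA carrier, held 3 shared peaks, the highest at 9.89 and 6.79 over 6112 bp, and EIF3A had 6.47 and 3.07. None of the 8 overlapped ChIP-seq there.

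Genes of RNA-binding proteins and snoRNA hosts also held wide shared peaks. HNRNPA1 had 14.5 with the goat antibody and 4.71 with the mouse antibody, HNRNPC 10.5 and 4.59, and HNRNPA2B1 8.89 and 6.25. These were the 3 of 24 hnRNP genes with a shared peak, while 18 had any goat antibody peak. Over all protein-coding genes 2.63% had a shared peak, which is 12.3% of those with any goat antibody peak. Of 14 SR splicing factor genes 10 had a goat antibody peak, but the shared ones were SRSF6 at 5.25 and SRSF3 at 4.68. NCL, which encodes nucleolin and hosts snoRNAs, had 17.6 and 5.57 over 6437 bp. Of 31 noncoding snoRNA host genes 18 had any goat antibody peak and 7 a shared one. Among all long noncoding RNA genes with any goat antibody peak, 12.3% had a shared one. The highest were GAS5 at 15.9 and 5.03, SNHG3 at 13.3 and 4.87, SNHG1 at 12.8 and 6.09, and SNHG25 at 11.9 and 3.395. The widest shared peak, 8791 bp, lay at DDX5, an RNA helicase gene, with 8.36 and 4.79.

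Replication-dependent histone genes are short, lack introns and polyadenylation, and are clustered. Of 66 in the annotation, older symbols included, 40 had any goat antibody peak and 12 a shared one, and 5 of these 12 were in ChIP-seq. Over all protein-coding genes 12.3% of those with any goat antibody peak had a shared one. H2BC4 and H4C3 lay under 1 shared peak with 5.49 by the goat antibody and 3.83 by the mouse antibody, and H3C1 and H4C1 under another with 4.88, 4.42 and 5.04 in ChIP-seq. The other genes with a shared peak in ChIP-seq were H2AC20 and H2AC21, under 1 peak with a ChIP-seq value of 5.85, and HIST1H4B, with 6.46. ChIP-seq overlap was not particular to shared peaks, since H1-2, H1-3, H2BC21, H3C2 and H4C4 had it with remaining peaks only. The goat antibody values of the histone genes with a shared peak were 2.85 to 5.49.

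Signal-responsive and intestinal genes had shared peaks of moderate height. EGR1, an immediate early transcription factor gene, stood out with 10.5 by the goat antibody and 8.23 by the mouse antibody at its promoter, with both summits 3 bp apart. JUND had 4.91 and 3.48, ATF4 4.90 and 4.23, and IER2 4.23 and 3.35, among 5 of 34 genes of that list. Any goat antibody peak was found at 24 of the 34. Of 24 WNT targets and intestinal regulators 13 had any goat antibody peak and 4 a shared one. Both lists stand beside the 12.3% of all goat-marked protein-coding genes that had a shared peak. AXIN2, a WNT feedback inhibitor, had 8.48 and 4.06, and GATA6 had 7.70 and 3.95. RNF43 had 4.95 and 2.72, and the stem cell receptor gene LGR5 had 3.07 and 4.04. These highest peaks of the 4 genes were intronic, and AXIN2, GATA6 and RNF43 had further shared peaks outside introns, at 5.98 and 3.68, at 5.42 and at 4.19.

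The label of the cells was read against markers, although a peak is no measure of expression. Of 14 colon epithelial genes 7 had a goat antibody peak and 2 a shared one, KRT8 at 5.41 and CLDN4 at 3.35. Over all protein-coding genes the shares were 21.4% and 2.63%. Of 14 genes of other cell types 1 had a goat antibody peak and none a shared one.

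Lists of other housekeeping genes were mixed. HSP90AB1, at 11.3 and 4.48, was the 1 of 24 heat shock and chaperone genes with a shared peak. The actin and tubulin genes had 3 of 12 (TUBA1C at 6.90, TUBB4B at 4.72 and TUBB3 at 3.68), glycolysis 3 of 16 (PKM at 5.88, HK2 at 3.46 and PFKP at 2.68), and RNAPII and its elongation factors 4 of 49 (among them SUPT4H1 at 4.19, CCNT1 at 4.13 and MLLT3 at 3.60). The proteasome had 1 of 48 (PSMB3 at 3.21), nuclear oxidative phosphorylation 2 of 88 (SDHD at 5.31 and NDUFA11 at 3.32) and the zinc finger genes of chromosome 19 had 5 of 240, led by ZNF320 at 5.49, all near the 2.63% of protein-coding genes. In the order of these lists, 8, 6, 9, 14, 12, 17 and 29 genes had any goat antibody peak.

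**Figure D5:**
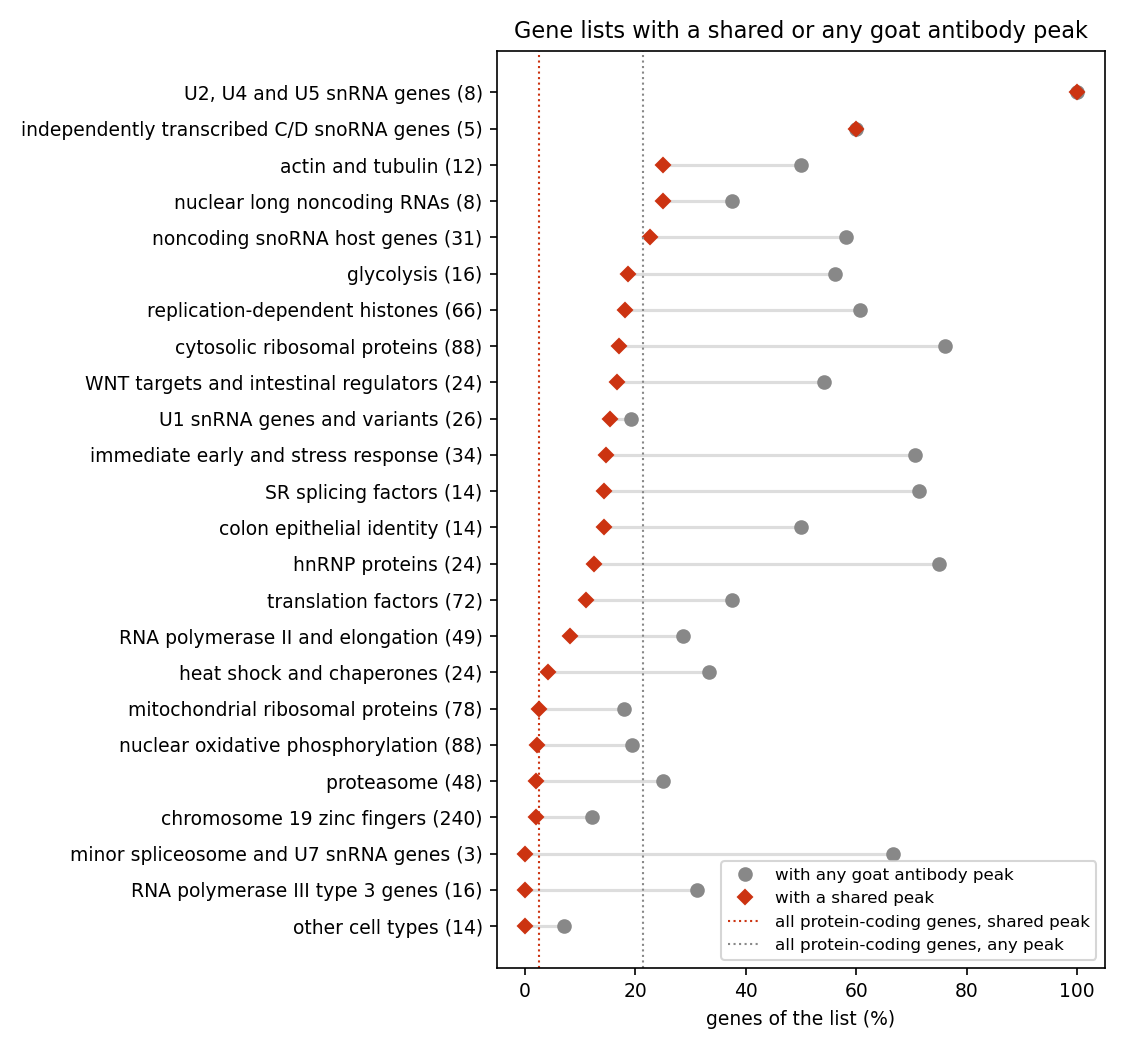
Percent of the genes of each list that had any goat antibody peak (grey circles) or a shared peak (red diamonds), with the number of genes in the annotation in brackets. Dotted lines are the 2.63% and 21.4% of all protein-coding genes; for the U2, U4 and U5 snRNA genes both points fall at the right edge.

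Long noncoding RNA genes had 190 of 18678 genes with a shared peak (1.02%). Of the 1544 with any goat antibody peak, 12.3% had a shared one, beside 12.3% for protein-coding genes. MALAT1, an abundant nuclear RNA gene, held 4 shared peaks, the highest at 6.89 with the goat antibody and 5.59 with the mouse antibody, and NEAT1, the scaffold of paraspeckles, held 3, the highest at 6.04 and 6.26. These 2 were the nuclear long noncoding RNA genes with a shared peak out of 8, of which 3 had any goat antibody peak.

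Shared peaks also stood in groups along the genome, described here after their values were seen. The 1 Mb bin with the most held 10 of them at the HOXB cluster and SKAP1, out of 48 goat antibody peaks, with goat antibody values of 3.88 to 8.49, and 2 of the 10 were in ChIP-seq. HOXB3 and the antisense HOXB-AS3 overlap and held 6 shared peaks between them. The bin of NEAT1 and MALAT1 held 8 out of 28, and that of RNU1-60P held 6 out of 25. The histone bin on chromosome 6, the LINC00910 bin on chromosome 17, the LINC-PINT bin on chromosome 7, the DLGAP1 bin on chromosome 18 and the SNHG1 bin on chromosome 11 held 5 each. By chromosome the share of goat antibody peaks that were shared was, among those with over 100 peaks, highest on chromosomes 19 (12.9%) and 17 (12.9%) and lowest on X (3.92%, 4 of 102).

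Sequence was compared in the 200 bp around the summit. The shared peaks' median GC content was 45.5% against 44%, and the 32 bases at the summit occurred more than once for 3.44% against 3.15% (difference 0.291 points, -0.882 to 1.92). Of 12 short words searched on both strands, 11 had intervals of the difference that held 0. The exception was the CTCF core CCACNAGG, in 4.27% of shared and 2.58% of remaining peaks (1.69 points, 0.393 to 3.45), and with 12 words searched 1 such interval is no firm difference. The GC box GGGCGG was in 9.92% and 8.38%, the AP-1 word TGACTCA in 5.23% and 6.0%, and the TATA word TATAAA in 14.2% and 15.6%. The word CCAAT was in 27.4% and 24.7%, ACTACAA of ZNF143 in 2.48% and 2.09%, and the E-box CACGTG in 2.75% and 2.26%. CCGGAAG of ETS factors was in 0.826% and 1.64%, the octamer ATTTGCAT in 1.52% and 1.28%, and GCGCATGC of NRF1, AAGATGGCG of YY1 and TGACGTCA of CREB each in under 1% of both. Split by promoter window, more of these intervals lay off 0. The AP-1 word was in 6.22% of shared and 3.24% of remaining promoter peaks (2.99 points, 0.354 to 6.997), but outside promoters in 4.79% and 6.90% (-2.11 points, -3.79 to 0.215). The GC box outside promoters was in 6.19% and 3.85% (2.33 points, 0.467 to 4.84), the CTCF core there in 4.19% and 2.43% (1.76 points, 0.267 to 3.92), and the ETS word in promoters in 1.78% and 4.62% (-2.84 points, -4.34 to -0.0119). Each of the 12 words was searched in both classes, and the intervals are not adjusted for their number.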

How the data were processed

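Peak lists of wild-type DLD1 cells were used as deposited: goat antibody CUT&RUN (2 replicates in 1 list), mouse antibody CUT&RUN (1 sample) and Elongin A ChIP-seq (1 sample). Before deposit, the authors mapped read pairs (Bowtie2, hg19), dropped PCR duplicates (Picard) and ran MACS2 with default settings against the IgG or input control. The methods describe the goat antibody and goat IgG only, and how the 2 replicates were combined is not given in the sources used here. The deposited fold enrichment is a ratio over local control background, and the deposited −log10 q-value is that of the authors' peak caller. With no read totals the depth is unknown.

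The gene models were those of GENCODE 44 in its GRCh37 version, which has no RNU2-1, RNU11, RNU12, RPPH1, RN7SL1 or SNORD3D by symbol. Peaks were classed by their centre in the order promoter, transcript end, exon, intron and intergenic. Small RNA genes were those of the snRNA, snoRNA, miRNA, rRNA and other small classes. Shares carry Wilson intervals and differences Newcombe intervals, at 95%. The reference sequence has no soft mask, so masked bases were not analysed. The steps were tested on simulated data with planted overlaps and classes.

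The shared peaks, gene lists and rules were chosen with earlier results of these data known. Named were the 12 shared peaks highest in the goat and the 12 highest in the mouse list, the 15 highest in ChIP-seq among those in all 3 lists, the 5 highest remaining peaks, up to 4 genes per list, and the peaks at the edge of the overlap rule. Histone genes were also matched by older symbols, and the 3′ box and the genome bins were added after the data were seen. Alternatives covered overlap, q-value, fold enrichment, width, chromosomes, merging, repeats, windows and gene sets. Other experiments of the series were not analysed here. A few items that these rules name are not reported here. Python 3.11.15 was used with numpy 2.4.6, pandas 2.3.3, scipy 1.17.1, pysam 0.24.0 and matplotlib 3.10.9, and samtools 1.23.1.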

Additional observations from a re-analysis of the deposited data

How the results depend on the processing

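Of 78 alternatives run, 5 were chosen after seeing the data. The promoter, ChIP-seq and small RNA differences kept their direction under their 15, 14 and 16 alternatives, which include only the top quintiles, and the intron, transcript end and word differences had none. The promoter difference of 6.64 points ranged from 4.84 to 8.46. The number of shared peaks moved from 726 to 237 at a fold enrichment of at least 5 and to 404 at a q-value under 0.001, and was 585 to 742 otherwise. Under the same 2 settings the protein-coding genes moved from 529 to 184 and 297. The ribosomal protein genes moved from 15 to 9 at a q-value under 0.001 and to 9 without peaks of 1 kb or more. The ChIP-seq difference of 5.10 points was 2.55 without peaks near small RNA genes, 2.22 for peaks narrower than 1 kb, 7.63 at a q-value under 0.001, 12.5 at a fold enrichment of at least 5, and 16.9, 11.6 and 12.6 within the top quintile by fold enrichment, width and q-value. The small RNA difference of 4.62 points was 2.09 without ChIP-seq peaks, 1.26 for peaks narrower than 1 kb, 3.04 with summits, 13.8 at a fold enrichment of at least 5, and 16.8, 9.62 and 11.3 within the same top quintiles. In the 4 lower quintiles, from the lowest up, the ChIP-seq difference was 1.36, -0.433, 1.45 and 3.51 points by fold enrichment and 0.889, -0.121, 0.568 and -0.254 by q-value, and the small RNA difference was 0.137, 2.41, 1.49 and -0.686 by width and -1.14, 1.03, -0.226 and 0.367 by q-value. Each negative value had an interval that held 0. The causes of these moves were not tested.

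No paired analysis was possible because the 2 goat antibody replicates are in 1 list and the results come from no test across samples. Leaving out a replicate was not possible for the same reason. Depth could not limit any statement by a known amount, since no read totals are given.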
